A study of Mus musculus with 8 samples.

Results

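Acetylation of histone H3 at lysine 27 (H3K27ac) was compared between naive and formative wild-type (WT) mouse embryonic stem cells, over every region of the deposited table that was above 0 in both states. That rule kept 108698 of 112137 regions. The WT cells were the R1 line. Naive cells were held in LIF2i, a medium of leukaemia inhibitory factor (LIF) with a pair of kinase inhibitors, and formative cells were taken 63 h after it was withdrawn. Each state had 2 libraries, cultured and prepared independently, and the libraries were made by CUT&Tag, in which an antibody guides a transposase to the marked chromatin. The other groups of the 8 libraries, which lack MLL3 and MLL4, were not analysed here. R1 is 1 line, so the spread between libraries is that of cultures of this line.

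Naive cells correspond to the epiblast of the blastocyst before implantation and formative cells to the epiblast shortly after it, when cells become able to enter the embryonic lineages. Naive identity is held by a network of transcription factors that includes Nanog, Esrrb, Tfcp2l1 and the Klf factors, and exit from it is driven by FGF and ERK signalling once the inhibitors are gone. H3K27ac is laid down by the acetyltransferases CBP and p300 at active promoters and enhancers, and is lost where these fall silent. In RNA of WT cells from libraries outside this series, which cannot check the cells used for CUT&Tag, 11 of 12 naive transcription factor genes were at least 2-fold lower in formative cells and 8 of 11 formative ones at least 2-fold higher.

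A level below is given as normalized reads per region, the mean over the 2 libraries of a state that DiffBind writes as a log2 concentration, here returned to the linear scale. Levels are not divided by the width of the region, so wider regions tend to have higher levels. A pooled difference is formative minus naive on the deposited log2 scale, from 1 pooled value per state and so without an SD. A region is said to have risen or fallen only where its adjusted p in the authors' deposited table was under 0.05. By that call 34.6% of regions changed: 20083 rose, 18.5% of those tested, and 17508 fell, 16.1%. All 37591 called regions had the same sign in the pooled difference, which is drawn from the same libraries and so is no independent check. By pooled difference alone, 67.8% of the regions that differed at least 2-fold were higher in formative cells. That share was 51.7% with both columns centred on their medians, which differ by 0.49. Centred on the medians of promoters, which differ by -0.16, it was 72.3%. In such bulk samples fewer cells with the mark and less of the mark per cell cannot be told apart.

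Sequences of 120 bases are shown first, as examples of the motifs whose shares in the middle 300 bases of regions are given further on. They are the reference sequence of mm10 on the plus strand, around a motif within that middle window of the strongest region outside promoters at naive or core pluripotency genes that fell, or at formative transcription factor genes that rose. Capitals mark the motif, on either strand, and lower case does not mark repeats. The stretches were not screened for repeats, so a motif shown may lie in one. The OCT motif is ATGCAAAT, ESRRB TCAAGGTCA, SOX AACAATG, KLF GGGTGTGG, ZIC CCTGCTG, OTX TAATCC and TEAD GGAATG. The first 4 lie in regions that fell, the Zscan10 region in an intron and the others between genes.
Klf2, OCT, chr8:72324196-72324315: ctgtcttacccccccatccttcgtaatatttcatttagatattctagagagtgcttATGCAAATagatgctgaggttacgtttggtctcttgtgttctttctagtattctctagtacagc
Zscan10, ESRRB, chr17:23602320-23602439: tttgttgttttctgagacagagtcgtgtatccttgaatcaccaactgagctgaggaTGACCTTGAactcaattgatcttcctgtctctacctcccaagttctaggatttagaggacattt
Klf5, SOX, chr14:99324734-99324853: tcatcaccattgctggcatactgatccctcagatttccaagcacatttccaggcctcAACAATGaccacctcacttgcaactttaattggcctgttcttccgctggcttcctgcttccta
Nanog, KLF, chr6:122690171-122690290: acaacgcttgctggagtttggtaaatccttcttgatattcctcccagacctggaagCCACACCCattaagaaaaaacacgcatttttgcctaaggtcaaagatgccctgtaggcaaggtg
The next 4 lie in regions that rose, annotated as introns at Lef1 and Sall2 and as intergenic upstream of Pou3f1.
Lef1, ZIC, chr3:131146218-131146337: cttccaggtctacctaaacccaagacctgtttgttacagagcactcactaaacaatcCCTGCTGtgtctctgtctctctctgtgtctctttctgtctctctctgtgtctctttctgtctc
Lef1, OCT, chr3:131139474-131139593: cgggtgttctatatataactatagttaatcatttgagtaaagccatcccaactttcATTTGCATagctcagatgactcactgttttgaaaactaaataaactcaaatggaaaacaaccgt
Sall2, OTX, chr14:52321506-52321625: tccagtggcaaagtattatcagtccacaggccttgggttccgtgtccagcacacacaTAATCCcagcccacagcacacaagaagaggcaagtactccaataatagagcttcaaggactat
Pou3f1, TEAD, chr4:124646462-124646581: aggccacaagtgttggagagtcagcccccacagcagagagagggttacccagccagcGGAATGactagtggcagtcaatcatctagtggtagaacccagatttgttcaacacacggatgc

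The regions around these stretches began at different levels. The Klf2 region went from 1121 normalized reads in naive to 199 in formative cells, that of Zscan10 from 1938 to 815, that of Klf5 from 1641 to 241 and that of Nanog from 537 to 88.6. Among the regions that rose, the Pou3f1 region went from 77.7 to 478 normalized reads and the Sall2 region reached 82.7 at a pooled difference of 1.99. The Lef1 regions began lower, at 6.23 and 8.06 normalized reads, and reached 91.1 and 69.1. In these 8 examples every region that fell began above every region that rose. They were chosen by their call and for a high level, so this order is no separate result.

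The same contrast held over all called regions. The median region that fell went from 276 to 70.0 normalized reads, while the median region that rose went from 15.9 to 100. Regions that were not called had medians of 51.6 and 66.3. A region needed signal in at least 1 state to be in the table: the higher of its levels was never under 21.9 normalized reads. In 34304 regions, 31.6% of all, the naive level was under 32 reads and the formative level was not, and 13281 of them rose. The mirrored set held 7003 regions, of which 4689 fell. A region in either set had little room to move the other way, so their one-sided counts describe the table as much as the cells.

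**Figure D1:**
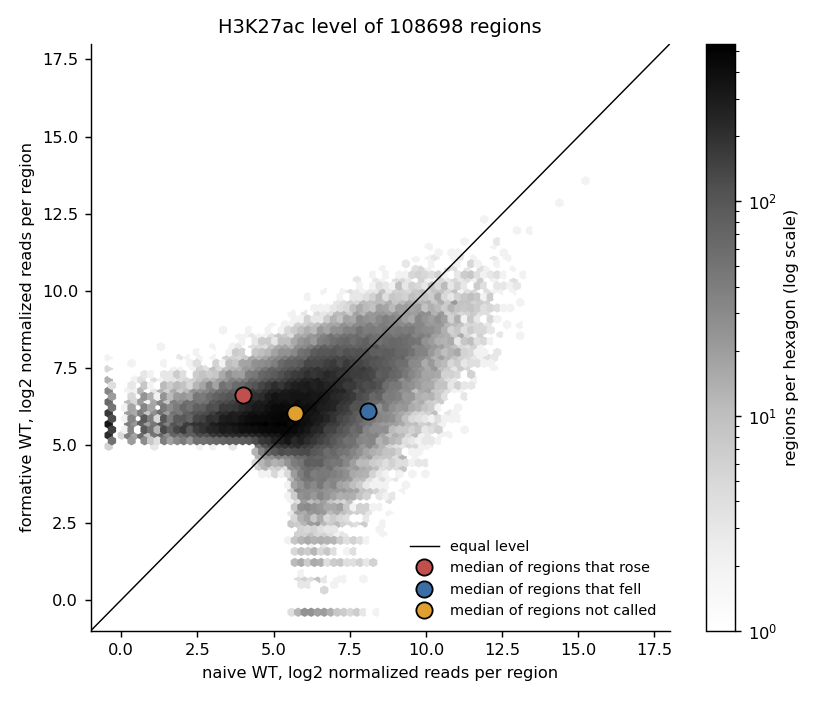
Level of each region in naive (x axis) and formative (y axis) WT cells, as log2 normalized reads, with the number of regions per hexagon in grey on a log scale. The coloured points are medians: regions that rose lie low in naive cells (3.99) and those that fell lie high (8.11), and the sparse lower left corner holds the 437 regions under 32 reads in both states.

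Where both states held at least 32 reads, the balance was turned. Of these 66954 regions 19.1% fell and 10.2% rose, and their median pooled difference was -0.03, against 0.51 over all regions, whose quartiles were -0.61 and 1.71. In the fifth of regions with the highest levels 41.2% fell and 13.6% rose, and in the fifth with the lowest 6.54% fell and 40.0% rose. The rule by which regions entered the table fixes much of this contrast by level, since no region under 32 reads in naive cells alone could fall far. Width went with level: the median was 2562 bases at the highest levels and 703 at the lowest. Regions that fell had a median width of 1736 bases and those that rose 1157. Split by width in the same way, 35.7% of the widest regions fell and 21.7% rose. Of the narrowest, 5.75% fell and 18.6% rose. The part of width in the contrast by level was not tested. Summed over the whole table, regions held 17.4 M normalized reads in naive and 13.2 M in formative cells, and the part of this difference in the counts was not tested.

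A further 3270 regions were at 0 in the naive pooled column and not in the formative one. All of them were called, at a median formative level of 50.6 normalized reads, and 1683 lay in introns and 1329 between genes. Only 169 were at 0 in the formative column alone.

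Promoters lost acetylation more often than they gained it. Of 5484 promoter regions 1432 fell (26.1%) and 537 rose (9.79%), with a median pooled difference of -0.30. Of the 616 regions in 5'UTRs 23.4% fell and 10.9% rose. Exons, introns, 3'UTRs and transcription ends had the reverse order: in introns, the largest class with 64276 regions, 19.9% rose and 12.9% fell, and in exons 20.9% rose and 9.21% fell. Between genes 16.5% of 28939 regions rose and 23.1% fell.

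Level shifts this order. In the fifth with the highest levels, intergenic regions fell most often, with 60.2% falling and 7.29% rising of 5120 regions, ahead of promoters with 45.3% and 4.18% of 2415. Introns at that level had 35.0% falling and 17.3% rising, and exons 23.3% and 19.1%. Where both states held at least 32 reads, the median pooled difference was -0.47 in promoters, -0.35 between genes and 0.10 in introns. At high level every class except exons, 3'UTRs and transcription ends thus held more than 2 times as many losses as gains.

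Shares also varied with how far a region lay from a transcription start site (TSS). Within 1 kb of a TSS 26.3% of regions fell and 9.99% rose. At 20 to 100 kb the shares were 12.7% and 21.5%, and beyond 100 kb they were nearly equal at 19.1% and 19.3%. Levels moved with distance too, from a median of 126 normalized reads in naive cells within 1 kb to 46.2 beyond 100 kb.

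**Figure D2:**
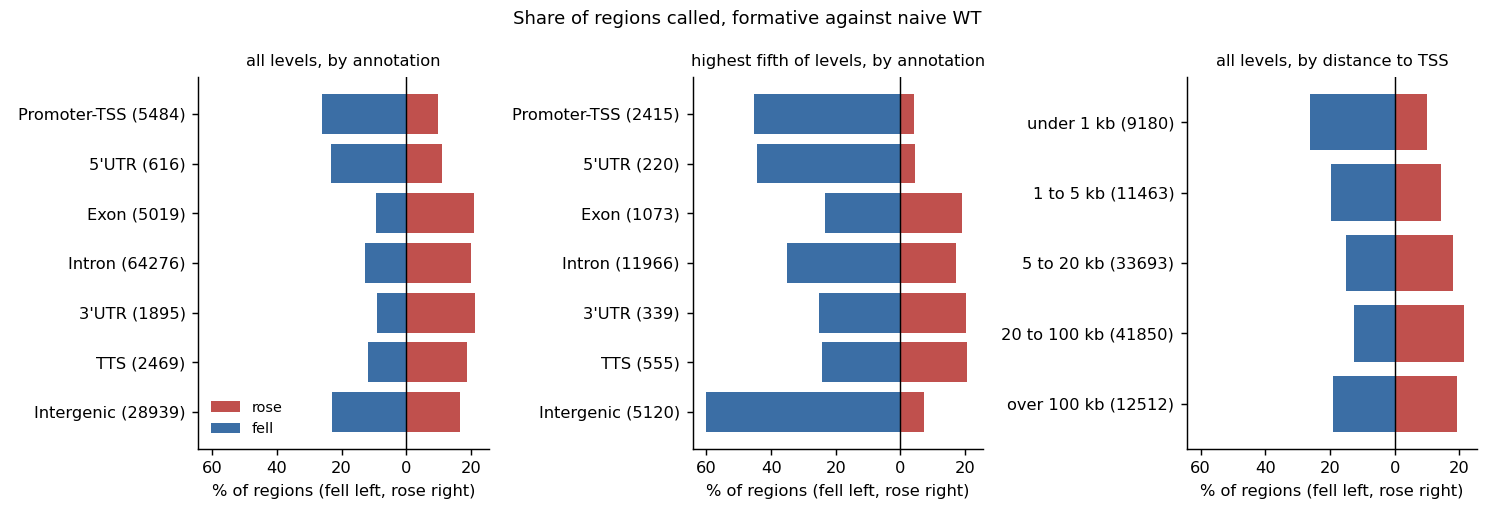
Percent of regions that fell (blue, left) and rose (red, right) by annotation class, by annotation class in the fifth of highest level, and by distance to the nearest TSS, with the number of regions in brackets. Intergenic regions of high level show the longest blue bar (60.2%), and regions at 20 to 100 kb the most gains of the distance classes (21.5%).

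Regions close together moved together. Where a region's end and the next start were under 1 kb apart and both were called, 96.5% of 4907 pairs had the same direction. The share was 81.9% at 5 to 20 kb and 61.5% at 50 to 200 kb. Across neighbouring regions the pooled differences had Pearson's r of 0.56 under 1 kb (28197 pairs) and 0.11 at 50 to 200 kb (8971 pairs), as a description, since neighbours share libraries, sequence and sometimes 1 broad domain that was split.

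Of the 18 lists, naive transcription factors had the lowest median, although single genes of other lists, such as Jam2 (-4.32), were lower. The 12 genes of that list had 155 regions within 100 kb, of which 89 fell (57.4%) and 9 rose (5.81%). Their median pooled difference was -1.91. The counts of each list are to be read beside all regions, of which 16.1% fell and 18.5% rose. Where both states held at least 32 reads, 56 of 90 fell and 0 rose, against 19.1% and 10.2% of all regions at that cut. RNA was at least 2-fold lower for 11 of the 12 genes. These RNA values are log2 group levels from libraries outside this series, with no test here and no stated unit, so they are compared only within a gene.

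Zfp42 (Rex1), a zinc finger factor used as a marker of naive cells, had 14 of 15 regions fall. Its promoter at chr8:43304999-43310072 went from 2272 to 133 normalized reads, with an adjusted p of 2.92e-91 in the authors' deposited table. An upstream region at chr8:43320450-43322769 went from 1898 to 31.1. RNA of Zfp42 went from 7.70 to 4.92. Regions that fell lay on both sides of the gene and inside it.

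Klf5, a Kruppel-like factor, had 15 of 22 regions fall and 2 rise. All but 1 of the losses lay in the gene body or in the intergenic stretch behind it, where the region at chr14:99347811-99358170 went from 3902 to 254 normalized reads and that at chr14:99335155-99344181 from 3126 to 278. Both Klf5 regions that rose lay upstream, were annotated as intronic and started at 2.58 and 3.51 normalized reads. Klf2 had 10 of 16 regions fall, its promoter going from 3104 to 208 normalized reads, and its RNA from 9.09 to 6.16. For Klf4, 4 of 6 regions fell, and a distal intergenic region went from 8364 to 232 normalized reads, at a Klf4 RNA difference of -0.87.

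Esrrb, an orphan nuclear receptor of the naive network, had its strongest regions in introns. There 7 regions fell, as did 1 in its 3'UTR, and 1 intronic region rose, of 13 regions in all. The widest, at chr12:86481398-86515151, went from 13588 to 1053 normalized reads, and the region beside it from 2435 to 204. The RNA difference of Esrrb was -3.98, the lowest of the list. Nr5a2, a nuclear receptor that can bind Pou5f1 control regions, had 6 of 12 regions fall.

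Tfcp2l1, a grainyhead-like factor downstream of LIF, had 14 of 33 regions fall and 3 rise, among them an intronic region, from 7132 to 635 normalized reads, and one just upstream, from 1184 to 44.9. Tbx3, a T-box factor, had 5 of 6 fall, its promoter from 704 to 105. Prdm14, a repressor of FGF signalling, had 7 of 17 fall and 2 rise, with a median of 0.77 that was above 0. Nanog had 5 of 8 regions fall and Nr0b1 1 of 2. Gbx2, a homeobox gene, stood apart: none of its 5 regions fell and 1 rose, at an RNA difference of -2.49.

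Core pluripotency factors, which both states use, also lost acetylation at many regions. Of 47 regions near the 8 genes 17 fell (36.2%) and 4 rose (8.51%), and at 32 reads or more in both states 13 of 34 and 2. The median RNA difference of the 7 genes with a value was nonetheless 0.04, and none was 2-fold lower. Sox2, partner of OCT4, had all 4 of its regions fall: its promoter went from 549 to 20.1 normalized reads, at an RNA difference of -0.92. Dppa4, a chromatin protein, had its promoter go from 676 to 115 normalized reads with RNA higher by 0.19. Rif1, a replication timing factor, had 5 of 13 regions fall at an RNA difference of 0.04. At Sall4, 1 region fell and 2 rose of 11, and at Utf1 2 fell and 1 rose of 5, its promoter at 57.7 and 41.6 normalized reads (adjusted p = 0.726 in the authors' deposited table). Pou5f1, which encodes OCT4, had 2 of 3 fall, but its RNA column is uncertain because near-identical copies exist. Neither region of Lin28a was called, with RNA higher by 2.21.

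The promoter sequences that go with the largest promoter losses of these factors, and with gains at other list genes, are shown as the 250 bases before the start site, from RefSeq on GRCm38.p6, 5' to 3' along the gene. The gains are the largest of any list whose stretch overlaps no annotated UTR. Capitals mark matches to any of 15 motifs searched on both strands: those above and STAT TTCCNGGAA, GRHL AACCNGTT, TCF/LEF ATCAAAG, AP-1 TGANTCA, FOX TGTTTAC, ETS CCGGAAGT, NRF1 GCGCATGCG and E-box CACGTG.
Zfp42 promoter, chr8:43307010-43307259, minus strand: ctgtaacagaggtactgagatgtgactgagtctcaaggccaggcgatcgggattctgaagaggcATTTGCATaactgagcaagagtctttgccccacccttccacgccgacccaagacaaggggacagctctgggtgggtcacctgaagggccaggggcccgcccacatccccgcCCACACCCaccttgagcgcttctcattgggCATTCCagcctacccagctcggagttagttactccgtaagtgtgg
Sox2 promoter, chr3:34649745-34649994, plus strand: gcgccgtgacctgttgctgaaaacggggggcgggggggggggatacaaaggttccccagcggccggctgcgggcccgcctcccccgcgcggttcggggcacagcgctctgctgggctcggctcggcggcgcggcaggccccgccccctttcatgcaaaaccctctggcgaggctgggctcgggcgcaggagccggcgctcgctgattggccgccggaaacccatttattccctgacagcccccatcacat
Smad3 promoter, chr9:63757995-63758244, minus strand: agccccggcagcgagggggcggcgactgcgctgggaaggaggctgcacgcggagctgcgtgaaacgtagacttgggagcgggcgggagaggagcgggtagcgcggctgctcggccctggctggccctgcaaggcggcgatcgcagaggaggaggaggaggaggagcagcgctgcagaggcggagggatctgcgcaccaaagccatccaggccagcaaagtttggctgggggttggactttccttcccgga
Sall2 promoter, chr14:52316324-52316573, minus strand: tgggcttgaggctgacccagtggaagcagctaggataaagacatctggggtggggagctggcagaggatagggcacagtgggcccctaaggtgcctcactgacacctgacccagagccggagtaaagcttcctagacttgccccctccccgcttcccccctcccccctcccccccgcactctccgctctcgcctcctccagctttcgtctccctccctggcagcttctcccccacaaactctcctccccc
The Zfp42 stretch held 3 matches, to OCT, KLF and TEAD, which are found in 1.60%, 3.20% and 12.6% of all 32851 RefSeq promoters of that length. The other three held none, and their GC content was 72.0% for Sox2, 69.2% for Smad3, 64.4% for Sall2 and 58.4% for Zfp42.

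Formative transcription factors were split by gene. Of 66 regions near the 14 genes 22 rose (33.3%) and 15 fell (22.7%), with a median pooled difference of 1.17. No gene had calls both ways. At 32 reads or more in both states the order was turned, with 8 of 32 rising and 11 falling and a median of 0.25. It was turned over all regions at that cut too, with 10.2% rising, 19.1% falling and a median of -0.03. Lef1, a Wnt effector, had 10 of 12 regions rise, all inside the gene and from naive levels of 39.7 normalized reads or less: the highest in formative cells, at chr3:131172337-131174607, went from 14.8 to 182. Pou3f1 (Oct6), a POU factor of the early epiblast, had 4 of 8 rise while its RNA went from 3.14 to 8.39. Its own promoter was at 17.3 and 48.5 normalized reads and did not pass (adjusted p = 0.439 in the authors' deposited table). Sall2 had 4 of 6 rise, its promoter from 118 to 352 normalized reads, with RNA higher by 3.43. Grhl2, a grainyhead factor of epithelial enhancers, had 2 of 4 rise, with RNA higher by 4.02. Tead2 and Sox4 each had 1 of 4 rise.

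In the other direction, Foxd3, a forkhead factor that opens enhancers at exit, had 8 of 10 regions fall, and the strongest, upstream of the gene, went from 1201 to 101 normalized reads. Its RNA was nonetheless higher by 0.72. Otx2, a homeobox factor that directs new enhancers in formative cells, had 2 of 3 regions fall, and its RNA was not analysed here. Nkx6-3 had 3 of 9 fall at an RNA difference of -2.43, and Tcf15 and Zic5 each had 1 fall. Sox3, Zic2 and Hes6 had 1 region each, not called, and RNA of Sox3 was higher by 3.31.

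Enzymes that write or remove DNA methylation had 29 of 91 regions fall (31.9%) and 12 rise (13.2%). At 32 reads or more in both states 21 of 62 fell and 8 rose. At Tet2, which oxidizes methylcytosine, 15 of 18 regions fell, and the intronic region at chr3:133516634-133535116 went from 8780 to 449 normalized reads. Tet1 had 6 of 15 fall. Dnmt3a, a de novo methyltransferase, had 8 of 22 rise and 3 fall, with RNA higher by 2.64, while its promoter was at 309 and 223 normalized reads (adjusted p = 0.411 in the authors' deposited table). Dnmt3b had 3 of 11 rise and none fall. The cofactor Dnmt3l had its promoter go from 1351 to 269 normalized reads and 4 of 8 regions fall. Dnmt1, the maintenance enzyme, had 1 of 9 in each direction, and no region of Uhrf1 or Tet3 was called.

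The LIF pathway, whose ligand was withdrawn, lost acetylation at 35 of 90 regions (38.9%) and gained it at 7 (7.78%). Of 54 regions with at least 32 reads in both states 23 fell and 0 rose. The kinase gene Pim1, a STAT3 target, had 11 of 13 regions fall although its RNA was higher by 1.03. Lifr, the receptor, had 7 of 23 fall and 1 rise, and its strongest region, upstream, went from 3259 to 292 normalized reads at an RNA difference of -2.13. Il6st, the co-receptor gp130, had 6 of 19 fall and 1 rise. Jak1, the kinase behind them, had 3 of 6 rise and none fall. Socs3, the feedback inhibitor, had 1 of 4 in each direction at an RNA difference of -2.66.

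FGF and ERK genes had 25 of 118 regions rise (21.2%) and 24 fall (20.3%), near the 18.5% and 16.1% of all regions, and at 32 reads or more in both states 12 of 81 and 19. Fgf4, the main ligand of naive cells, had all 7 regions fall, among them an upstream one, from 3126 to 294 normalized reads, and its promoter, from 605 to 126. The receptor Fgfr2 had 6 of 13 rise and Fgfr1 5 of 11. Dusp4, an ERK phosphatase, had 6 of 24 rise with RNA higher by 3.53. Dusp6 had 2 rise and 1 fall of 6, and its promoter was at 564 and 388 normalized reads, with an adjusted p of 0.0574 in the authors' deposited table, while its RNA was higher by 3.81. Spry2, another ERK inhibitor, had 6 of 11 fall and 1 rise at an RNA difference of 0.36. Fgf5, the classic marker of the post-implantation epiblast, had the largest RNA difference of the list at 6.09, and its single region, at a pooled difference of 4.10, was not called. Egr1 and Fgf15 likewise had RNA higher by 4.48 and 5.27, with 1 of 4 regions and 0 of 1 called, the former a gain.

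Regions of BMP genes rose more often than they fell, 25 of 84 (29.8%) against 4 (4.76%). At 32 reads or more in both states 11 of 49 rose and 2 fell. By gene the list was even: 3 genes had only gains, 3 only losses, 1 both and 1 no call. Most gains were at signal transducers: 13 of 25 regions of the inhibitory Smad6 and 10 of 19 of Smad1 rose, with RNA higher by 0.39 and 0.55. The ligand Bmp4 had 1 of 3 regions fall and Id4 1 of 2, and none of theirs rose. An intronic Smad6 region went from 62.7 to 338 normalized reads, and one of Smad1 from 91.8 to 324. The receptor Bmpr1a had 1 of 13 in each direction. The targets Id1 and Id2 had RNA higher by 2.85 and 2.49, with 1 of 5 regions falling at Id1 and 1 of 7 rising at Id2.

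Nodal and activin genes had 19 of 83 regions rise (22.9%) and 5 fall (6.02%), against 18.5% and 16.1% of all regions. At 32 reads or more in both states 6 of 47 rose and 5 fell, against 10.2% and 19.1% of all regions. Smad3, an effector, had 8 of 26 rise, and its promoter went from 4.23 to 59.3 normalized reads. The ligand Nodal had 3 of 12 fall, among them the region just upstream, from 3259 to 1090, at an RNA difference of 0.51. The receptor Acvr2b had 3 of 5 rise and the corepressor Skil 5 of 13. Lefty1, a secreted antagonist, had its promoter go from 217 to 617 normalized reads with RNA higher by 2.59.

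In the Wnt list 30 of 113 regions rose (26.5%) and 18 fell (15.9%). Of the 68 at 32 reads or more in both states 11 rose and 15 fell, where 10.2% and 19.1% of all regions did. Nkd1, a feedback inhibitor, had 10 of 17 rise. The ligands Wnt3 and Wnt8a had 5 of 12 and 3 of 7 rise, with RNA higher by 4.94 and 5.32, and the upstream Wnt3 region went from 75.6 to 352 normalized reads. Rspo1, which potentiates Wnt signals, had 2 of 3 rise. Tcf7l1, a repressor that promotes exit, had 10 of 29 fall and 3 rise at an RNA difference of 0.02. Ccnd1 had 3 of 7 fall and 1 rise, its promoter from 265 to 69.1 normalized reads with RNA higher by 0.45, and Notum, which inactivates Wnt proteins, had both regions fall at an RNA difference of -3.75.

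Adhesion genes gave some of the widest changes in both directions, 38 of 101 regions falling (37.6%) and 19 rising (18.8%). At 32 reads or more in both states 26 of 61 fell and 5 rose. Jam2, a junctional protein, had all 11 regions fall, with pooled differences from -4.90 to -2.49. The region upstream of Jam2 went from 2937 to 93.1 normalized reads, and its RNA difference was -2.84. Fn1 had 9 of 16 and Pecam1 7 of 16 fall. Podxl, an apical sialomucin, had 11 of 19 rise, an intronic one from 66.3 to 580 normalized reads, and RNA was higher by 2.82. Epcam had 4 of 11 rise and 1 fall, with RNA higher by 2.83.

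Glycolysis genes had 24 of 95 regions fall (25.3%) and 7 rise (7.37%). At 32 reads or more in both states 21 of 79 fell and 3 rose. Pfkp, a phosphofructokinase, had 8 of 12 fall at an RNA difference of -1.68. Slc2a3, a glucose transporter, had 5 of 10 fall and 1 rise, its promoter from 630 to 231 normalized reads. Eno1 had 3 of 9 fall and 2 rise, and Hk2 3 of 21 fall and 1 rise. The housekeeping list moved in the same direction, with 21 of 79 regions falling, 26.6% against 16.1% of all regions, as did the promoters of 5 of 6 genes. The Ppia promoter went from 1235 to 329 normalized reads, that of Eef1a1 from 832 to 419 and that of Ywhaz from 127 to 11.4. Ywhaz, Eef1a1 and Ppia have near-identical copies, so reads at them may be shared with these. At Actb 2 of 10 fell and 1 rose. Among housekeeping genes with RNA none of 8 was 2-fold changed, with a median RNA difference of 0.40.

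Markers of other cell types were few in regions. Primitive endoderm markers had 12 of 33 regions rise (36.4%) and 0 fall. At 32 reads or more in both states 4 of 13 rose and 0 fell. Of the gains, 7 were among the 14 regions of Lamb1, a laminin chain whose RNA was higher by 2.72. Col4a1 had 2 of 8 rise, and Gata4, Sox7 and Gata6 1 each. Trophoblast markers had 10 of 39 rise (25.6%) and 12 fall (30.8%). At 32 reads or more in both states 4 of 22 rose and 11 fell. Krt18 had all 6 regions rise, by 3.18 to 6.27. Krt8 had 3 of 6 rise, its promoter from 62.7 to 377 normalized reads. Tfap2c had 8 of 13 fall at an RNA difference of -2.49, and Gata3 4 of 7 fall and 1 rise. RNA of Krt7 was higher by 3.44 with its single region not called. Mesendoderm markers had 6 of 21 rise (28.6%) and 2 fall (9.52%). At 32 reads or more in both states 0 of 10 rose and 2 fell. Mixl1 had 3 of 6 rise, Cer1 2 of 4 and T 1 of 3, and both losses were at Gsc. RNA of T was higher by 2.99, of Evx1 by 2.03, and that of Cdx1 differed by -2.66.

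Neural markers had 3 of 16 regions rise (18.8%) and 2 fall (12.5%), near the shares of all regions: Nes 1 of 4 and Map2 1 of 2 rose, and Sox1 had 1 rise and 2 fall of 6. RNA of Nes was higher by 2.01. Fibroblast feeder markers had 2 of 13 rise (15.4%), at Thy1 and Col1a2. Another 3 fell (23.1%), both regions of Col3a1 and the only region of Twist1. RNA of the 4 feeder genes with a value lay between -1.59 and 0.24 in naive and between 0.98 and 2.71 in formative cells, and was at least 2-fold higher for all 4, with Fbn1 higher by 2.44. Their markers Col1a1, Postn and S100a4 had no region. 2-cell-like markers had 3 of 11 fall (27.3%) and none rise, 1 each at Tcstv3, Zscan4f and Zscan4c, which have close copies. The part of such cells in the results was not tested.

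**Figure D3:**
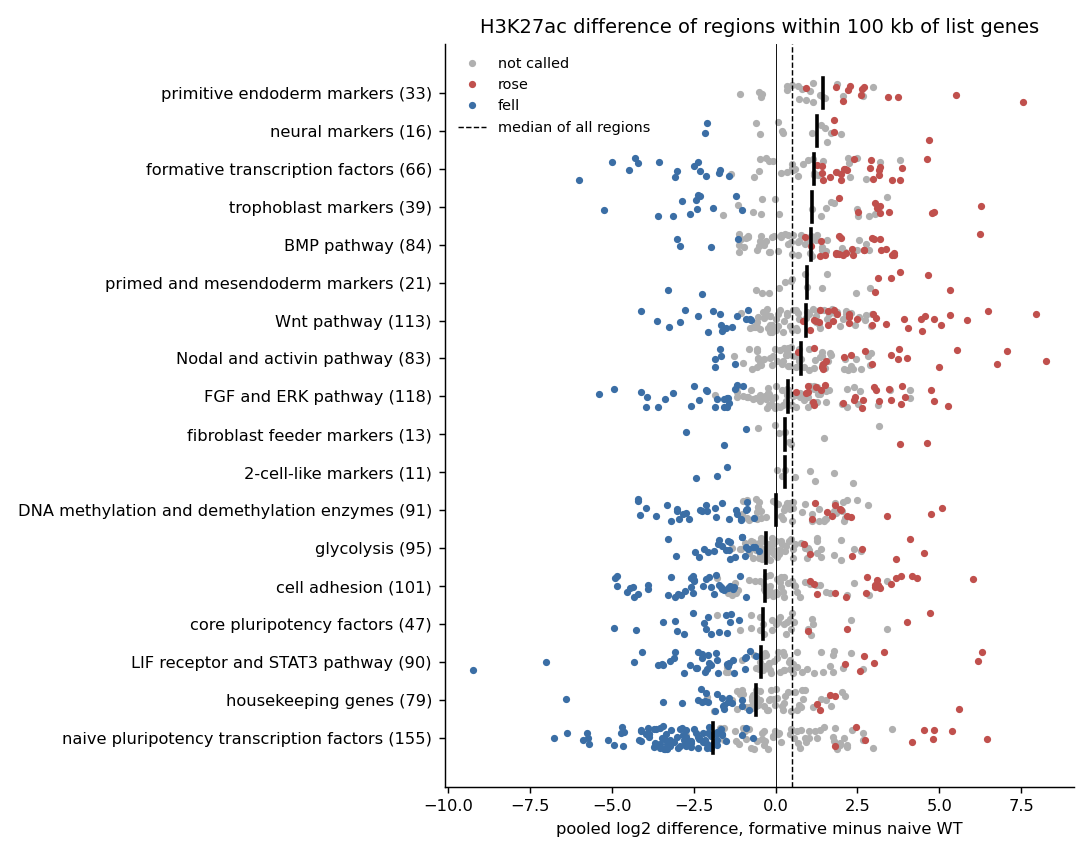
Pooled log2 difference of each region within 100 kb of the genes of 18 lists (x axis), coloured by call, with the number of regions in brackets, black bars at list medians and the dashed line at the median of all regions. Naive transcription factors lie furthest left (median -1.91) and primitive endoderm markers furthest right (1.46, from 33 regions).

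Beyond the lists, 18432 genes had a region within 100 kb of their TSS. In 5793 all called regions rose, in 4380 all fell, 2432 had both and 5827 had none called. Among 7091 genes with at least 5 regions, all regions fell in 39 and all rose in 5. Loci that lost every region included Tmem64 (14 regions, median -3.42), H2afz (7, -3.02), Klf8 (7, -3.55) and Spp1 (6, -3.23), chosen after their values were seen. The 5 that gained every one were Krt18, Zyx, Ankrd13a, Gm4566 and Mir6940. Zyx, a focal adhesion protein, had RNA higher by 3.07.

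The largest excess of gains was at Zfp423, a zinc finger factor of BMP signalling, where 52 of 84 regions rose and 2 fell, with RNA higher by 2.54. Foxp1, a forkhead factor, had 23 of 54 rise and 2 fall with RNA higher by 3.16, and Mad1l1, a spindle checkpoint gene, 29 of 76 and 2. Next were Sardh with 19 of 31, Angpt2 with 18 of 40, Cldn22 with 18 of 30, Zfhx3 with 17 of 33 and Dbx1 with 17 of 26, all without a loss. The largest excess of losses was at Enah, an actin regulator, with 26 of 34, followed by Bcat1, which breaks down branched-chain amino acids, with 24 of 37 and 2 gains. Rbpj, the Notch effector, had 21 of 31 fall, Rtn4 21 of 28, Trim24 20 of 49, Zmym4 20 of 31 with 1 gain, Slc25a13 19 of 26 and Cobl 19 of 22. RNA differences were -2.13 for Cobl and -1.82 for Bcat1, 0.00 for Trim24 and -0.48 for Enah.

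By the rule for single regions, the called promoters of highest level were that of Kat2b, an acetyltransferase, which fell from 8903 to 815 normalized reads, and among those that rose that of Ninj2, from 495 to 849. In introns they were at Etl4, from 14563 to 3956, and Mir7018, from 2778 to 5955. In 3'UTRs a region assigned to Grip2 went from 942 to 1418 and one assigned to Sinhcaf from 3421 to 1520. Such regions can be wide, and their levels are not corrected for width: the Kat2b region spans 15280 bases and the Ninj2 region 4502. The names are those of the nearest TSS. The Sinhcaf region lay at -46926 bases from that TSS and the Mir7018 region at -32569, so upstream of the gene named. Pisd in its 5'UTR went from 343 to 541 and Luc7l2 from 2006 to 537. Between genes Gm15319 went from 760 to 2135, and at a transcription end 3930402G23Rik from 695 to 1951. Regions assigned to Rn45s, Mir101c, Pisd-ps1 and Wls were the strongest of their kinds as well, but lie in repeated or copied sequence or are very narrow for their level, so their values are uncertain and are not given. Reads at Pisd may be shared with its copy Pisd-ps1, so the Pisd values are uncertain too.

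Promoter acetylation and RNA were then set side by side for 3020 genes that had both. Where RNA was at least 2-fold higher in formative cells (383 genes), 25.1% of promoters rose and 6.79% fell. Where it was at least 2-fold lower (215 genes), 48.4% fell and 5.58% rose. In between (2422 genes) 29.1% fell and 5.00% rose, so promoter losses were common without a 2-fold RNA difference. Of 836 promoters that fell, 84.4% had RNA within 2-fold, near the 80.2% of all promoters. Of 229 that rose, 41.9% had RNA at least 2-fold higher. Across genes, Pearson's r of promoter and RNA differences was 0.41 and Spearman's rho 0.32. For regions outside promoters the median per gene gave r of 0.33 over 8926 genes, as a description, since all genes share the same libraries.

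Promoters that rose with the largest RNA gains were those of Mal2, an apical transport protein, from 2.58 to 49.9 normalized reads with RNA higher by 5.39, Fermt1, an integrin activator, from 9.13 to 158 with 5.30, and Arhgef5 from 24.6 to 114 with 4.27. That of Ccdc194 went from 79.3 to 898 and that of Pim2, a kinase, from 61.4 to 138, with RNA higher by 4.35 and 4.69. The Vwa2 promoter reached 43.1 from the lowest naive level of the table, so no fold is given, with RNA higher by 4.37. On the losing side stood Tdh, threonine dehydrogenase of naive metabolism, from 929 to 36.8 at an RNA difference of -3.26, and Lrrc34 from 1046 to 43.4 at -4.26. Oas1a, an interferon-response gene, went from 657 to 112, St8sia1 from 208 to 38.1, 1700042O10Rik from 360 to 86.2 and Accsl from 249 to 26.2, at RNA differences of -4.68, -4.40, -4.27 and -3.33.

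Some promoters went against their RNA. Those of Slc4a5, Maml2, Tfpi and Dnase1l2 rose at RNA differences of -2.21, -1.78, -1.76 and -1.60, and the Slc4a5 promoter went from 67.2 to 396 normalized reads. The promoters of 2610035F20Rik, Hist1h2bj, Mir302a and Hist1h3e fell while RNA was higher by 3.03, 2.68, 2.48 and 2.25. The Mir302a promoter went from 260 to 114 normalized reads. The histone genes belong to a family of close copies and are uncertain. Naive RNA of the genes named here whose promoters fell lay between -1.97 and -0.87, near the lowest RNA value of any gene, -2.29. Their RNA differences are therefore uncertain. RNA of Dnase1l2 was low as well, at 0.40 in naive and -1.20 in formative cells.

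**Figure D4:**
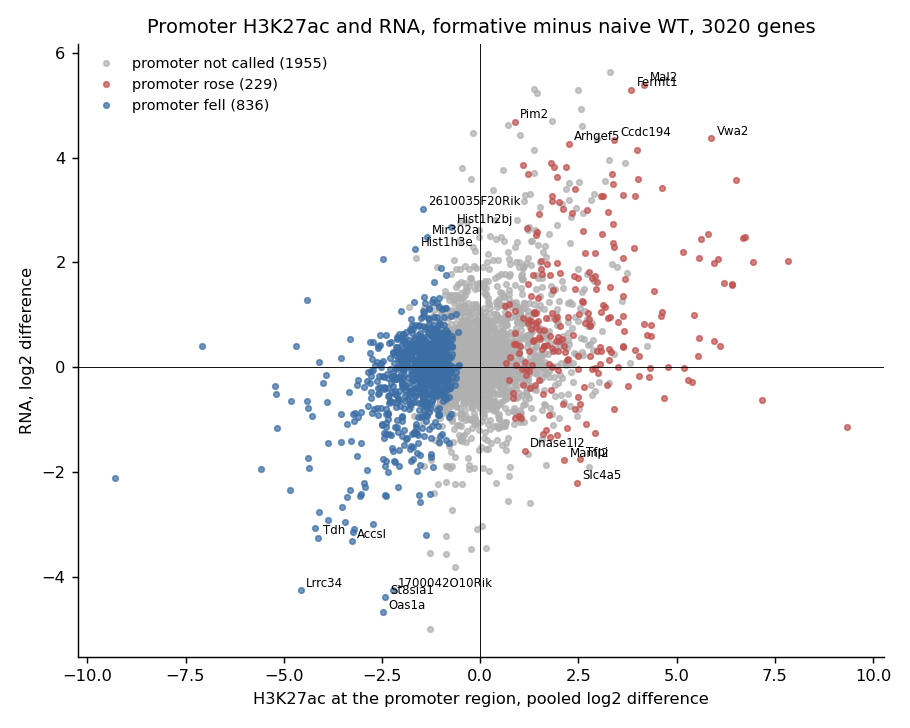
Pooled log2 difference of H3K27ac at the promoter region nearest the TSS (x axis) and log2 difference of RNA (y axis) for 3020 genes, coloured by the promoter's call, with the genes named in the text labelled. Promoters that fell (836) lie mostly near an RNA difference of 0, and those that rose (229) mostly above it.

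H3K4me1, a mark of enhancers, was compared through the log2 fold in the authors' deposited table, from libraries outside this series. Its median was 0.03 in regions where H3K27ac rose and -0.22 in those where it fell, against -0.20 in regions not called, by the authors' deposited table. In the authors' deposited table H3K4me1 was at least 2-fold lower in 18.4% of regions that fell and 10.3% of those that rose, and at least 2-fold higher in 1.01% and 11.7%. Across all regions the differences of both marks had Pearson's r of 0.19. In regions not called, the authors' deposited table gives 16.5% at least 2-fold lower and 4.63% higher, so the share lower in regions that fell was near that background.

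Sequence content differed between regions that rose and regions that fell. Outside promoters, the ESRRB motif was in the middle 300 bases of 1.82% of regions that fell, 0.614% of those that rose and 0.968% of all 103214. For the OCT motif the shares were 2.39%, 1.28% and 1.49%, for SOX 5.01%, 3.78% and 3.93%, and for KLF 4.07%, 2.96% and 3.37%. The ZIC motif had the reverse order, 9.55%, 12.9% and 11.2%, and GRHL and FOX did too, at 1.92%, 2.48% and 2.30% and at 3.74%, 4.76% and 4.16%. The OTX motif was more frequent in regions that fell, at 12.4%, 10.4% and 11.2%, and TEAD hardly differed, at 17.0% of regions that fell and 16.7% of those that rose. Shares for AP-1, at 9.05%, 9.09% and 9.05%, hardly differed. Above the median level, ESRRB was at 1.69% and 0.613% and ZIC at 9.31% and 14.2% of regions that fell and rose. These shares are descriptions without a test, and a match is not a bound site. Windows of regions that fell also held more repeats, as given below. Motif shares were not recomputed without repeats, so the part of repeats in them was not tested.

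Repeats went with the direction as well. On average 35.3% of the window's bases were soft-masked as repeats in regions outside promoters that fell, and 20.8% in those that rose. Windows at least 50% soft-masked made up 29.8% of the regions that fell and 13.5% of those that rose. GC content was similar at a median of 46.7% and 49.3%. In promoters, the ratio of observed to expected CpG was 0.734 among those that fell, 0.385 among those that rose and 0.666 over all, and the ETS motif was in 5.10%, 1.68% and 4.81%. Promoters that fell were thus CpG-rich like most promoters, and those that rose were CpG-poor. The part of mapping in repeats was not tested, and leaving out windows that were mostly soft-masked changed no call of direction for the counts and medians over all regions.

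Chromosome 8 and the sex chromosomes stood apart from the other autosomes. Over the 18 autosomes other than 8, the median pooled difference lay between 0.27 and 0.72, and that of promoters between -0.60 and -0.02. On chromosome 8 they were 0.83 and 0.14, with 23.3% of regions rising and 10.1% falling. It also held the most regions per megabase, 67.9 against 28.4 to 63.9. At 32 reads or more in both states chromosome 8 had 16.4% rising, against 6.27% to 12.9% on the others. On the X chromosome the median was -0.52, with 33.3% falling and 10.2% rising. The Y chromosome, with 93 regions, had a median of -0.36, with 32.3% falling and 12.9% rising. Zfp423, Angpt2, Cldn22 and Zfhx3, among the genes with most gains, lie on chromosome 8, and so do Zfp42, Klf2, Smad1, Nkd1 and Dusp4. Without both chromosomes 18.2% of regions rose and 16.4% fell. Copy number was not measured here, and its part in the chromosome 8 and X values was not tested.

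**Figure D5:**
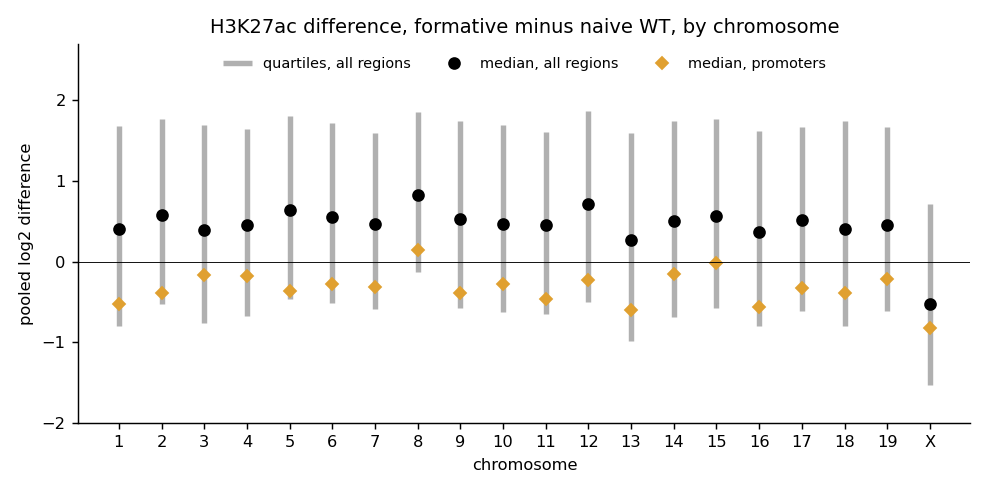
Pooled log2 difference by chromosome: black points are medians of all regions, grey lines their quartiles and orange diamonds medians of promoters. Chromosome 8 has the highest medians (0.83 and 0.14 for promoters) and the X chromosome the lowest of those drawn (-0.52).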

How the data were processed

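CUT&Tag libraries were processed by the authors, who deposited 1 table with 47 columns. The submitters' processing notes list Bowtie2, Trim Galore, DiffBind, SEACR and deepTools, and mm10 as the build, without versions. Its pooled log2 values, log2(value + 1), are 1 per state, with scaling not stated. DiffBind's concentrations, log2 fold and Benjamini-Hochberg adjusted p-value, deposited by the authors, are the only test over libraries. RNA group values and H3K4me1 log2 folds, deposited by the authors, come from libraries outside this series. Of the columns, 28 were not used, of which 12 hold other group levels. No column used gives the reads of a library, so depth is unknown.

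From these values differences, counts, medians and shares were computed with Python 3.11.15 and pandas 2.3.3, and sequence was read with pysam 0.24.0. The motif search and quantile normalization were tried on simulated data. The authors' calls of regions that rose or fell were not. Regions were assigned to the nearest TSS as deposited, within 100 kb. Of 5321 genes with a promoter region, 4113 matched a RefSeq promoter. Genes named are, per list, up to 4 with the most called regions, those with RNA 4-fold changed and, for pluripotency and formative factors, those with a promoter region; over all genes, the 8 with the largest excess of gains and of losses; called promoters with the largest RNA differences, 6 with and 4 against their direction; and per class the called region of highest level. Others were named after their values were seen. The members and lists were chosen with earlier results of these data known, so no list is tested. RNA was present for 9781 genes. Its lowest value, -2.29, was held by 72 genes in naive and 7 in formative cells, and RNA differences of genes near it are uncertain.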

Additional observations from a re-analysis of the deposited data

How the results depend on the processing

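Of 132 values under alternatives, 111 kept their direction and stayed within 1.5 times a count or share, or within 1.16 of a log2 value. Of the rest, 8 moved further and 13 changed sign. The limit of 1.16 is the quartile range of pooled differences over regions, divided by 2. It is wide beside the centring shift of 0.49, so centring could change a sign but could not count as a move. The number of regions that rose was 12490 at an adjusted p under 0.01, 7416 above the median level, 42513 by a pooled difference of at least 1 with no p and 3638 at 64 or more normalized reads in both states, and there 9273 fell. The last setting and the exclusions of chromosomes 8 and X and of mostly soft-masked regions were chosen after seeing the data. The median pooled difference, 0.51, was 0.02 with both columns centred on their medians and 0.01 with quantile normalization, both near 0 by construction, -0.15 above the median level and -0.23 at 64 or more reads in both states. The columns' medians differ by 0.49 over all regions but by -0.16 over promoters, and centred on promoters the median pooled difference was 0.68. List medians are thus best read beside the median of all regions. That median was -0.03 at 32 or more reads in both states. Regions at least 2-fold higher were 67.8% of those 2-fold changed, 51.7% after centring on all regions and 72.3% after centring on promoters. The promoter median minus the intergenic median was -0.57, but 0.12 above the median level and 0.02 at 64 or more reads in both states. The share of promoters that rose where RNA was higher was 40.5% at 4-fold RNA. List medians that changed sign were, after centring, DNA methylation enzymes (-0.49), FGF and ERK (-0.12), feeder (-0.19) and 2-cell-like markers (-0.22). The main median of DNA methylation enzymes was 0.0 after rounding, so its changes of sign do not reverse a gain. With DiffBind concentrations DNA methylation enzymes were at -0.07. With quantile normalization the values were -0.54 for DNA methylation enzymes, -0.12 for FGF and ERK and -0.49 for feeder markers, and within 20 kb that of FGF and ERK was -0.19. Trophoblast and feeder medians were 2.86 and 4.62 within 20 kb. The cause was not tested. Of 18 lists, 16 stayed on the same side of the median of all regions under the scalings run. Centring shifts every region alike and cannot change this, so only quantile normalization and DiffBind concentrations could have moved a list. No paired analysis was possible because the columns hold 1 pooled value per state. For the same reason no replicate could be left out.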
